A study of Mus musculus with 23 samples.

Results

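The 10 genes described here, of 18194 measured, are expressed by neutrophils or act on them, and include the cytokine gene Il1b. They were chosen by name: S100a8, S100a9 and Stfa3, whose products are abundant in neutrophils, Cxcr2 and Csf3r, which encode receptors of neutrophils, Cxcl1, Cxcl2 and Cxcl5, which encode chemokines that attract them, and Il1b with its decoy receptor gene Il1r2. Among the probe sets annotated to 1 gene, the brightest on average over the arrays stood for each gene. Cxcl1 had 3 such probe sets, and each of the other 9 genes had 1.

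Expression was measured on 23 oligonucleotide arrays, each hybridised with mouse colon RNA. The sample titles name the BALB/c strain for the wild-type groups and no strain for the knockout groups. The 4 groups were Fn14 knockout colons treated with TNBS (n = 7), wild-type colons treated with TNBS (n = 6), untreated Fn14 knockout colons (n = 5) and untreated wild-type colons (n = 5). Tnfrsf12a encodes Fn14, to which the cytokine TWEAK binds, and the comparison asks how its loss changes chronic colitis. The labels give the knockout no further detail, such as the cells or the allele concerned. The hapten TNBS, given rectally together with ethanol, causes colitis in mice. The treated groups received rectal injections of 0.2% TNBS over 6 weeks, in volumes between 1.0 and 2.0 ul per g of body weight, and colons were taken after another 3 days. Whether the untreated groups received the ethanol solvent is not stated, so that every TNBS difference below may include effects of the injections and the solvent. The labels number the samples of a group without saying that each came from its own mouse, and p-values measure only the spread between these samples, which may be technical.

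Neutrophils are short-lived cells made in the bone marrow under the growth factor G-CSF, whose receptor is Csf3r. They enter inflamed tissue along gradients of chemokines such as Cxcl1, Cxcl2 and Cxcl5, which bind the receptor Cxcr2. S100a8 and S100a9 form calprotectin, a metal-binding complex that fills the neutrophil cytosol and is used as a stool marker of bowel inflammation in people. IL-1 beta, made by macrophages, monocytes and neutrophils, induces these chemokines in epithelial and stromal cells, largely through the transcription factor NF-kappaB, and Il1r2 binds it without signalling. S100a8, S100a9 and stefins are also made by squamous epithelium, such as that of the anal canal and skin, when it is stressed.

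Cxcl1 and Cxcl2 are direct neighbours among the protein-coding genes of chromosome 5, and S100a8 and S100a9 are direct neighbours on chromosome 3. Promoter sequences of 9 of the 10 genes were found in RefSeq (GRCm38.p6), and Cxcl5 is named only. The 250 bases before each gene's start were searched on both strands for the kappaB decamer consensus. The 120 bases before the start are shown for both neighbouring chemokine genes and for Il1b as examples with and without the decamer. Capitals mark overlapping matches to the decamer on both strands, which lie 71 to 61 bases before the start in Cxcl1 and 97 to 87 bases before it in Cxcl2. Cxcl1 lies at chr5:90891125-90891244 on the plus strand, Cxcl2 at chr5:90903779-90903898 on the plus strand and Il1b at chr2:129371140-129371259 on the minus strand.
Cxcl1: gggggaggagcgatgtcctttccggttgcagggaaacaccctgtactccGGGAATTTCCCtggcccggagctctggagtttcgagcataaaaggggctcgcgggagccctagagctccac
Cxcl2: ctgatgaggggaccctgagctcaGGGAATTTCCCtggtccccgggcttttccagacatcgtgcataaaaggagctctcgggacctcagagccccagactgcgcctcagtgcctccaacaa
Il1b: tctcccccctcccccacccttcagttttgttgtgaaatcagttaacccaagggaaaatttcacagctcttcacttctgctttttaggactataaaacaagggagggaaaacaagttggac
The capitalised run is the same in Cxcl1 and Cxcl2. Csf3r held 1 match on the strand opposite to the gene, and the other 6 promoters, that of Il1b included, held none within the 250 bases searched. Of 32851 promoters, 7.25% held the decamer. The motif GCAAT, a short site of C/EBP factors, stood in 6 of the 9 promoters (23.1% of all promoters held it), and GAGGAA, a motif of the PU.1 type, in 4 of 9 (23.3% of all). A match in letters is a description and not a binding site.

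As a check of the labels, Tnfrsf12a lay between 3.84 and 4.17 on the log2 scale on all 12 knockout arrays and between 5.86 and 8.25 on all 11 wild-type arrays. All values below are the deposited log2 values, which had a floor of 2.17. A gene at that floor on every array of a group may be off or below what the probes can measure, and a difference from the floor is understated. Levels of different genes come from different probes and are not set against each other. In these bulk samples, fewer cells of a type and less RNA per cell cannot be told apart. Arrays of the same group correlated at 0.989 to 0.998 over all genes. Markers of colon epithelium averaged between 12.79 and 13.01 on the TNBS arrays and between 12.92 and 13.12 on the untreated ones. The 12 Fn14 knockout arrays and the 11 wild-type arrays were tested together with limma, with p-values adjusted over all 18194 genes by the Benjamini-Hochberg method and a threshold of 0.05.

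With TNBS, 1 of the 10 genes, S100a9, rose in Fn14 knockout colon, where 4.08% of all genes were called higher. In wild-type colon 7 of the 10 rose with TNBS: S100a8, S100a9, Stfa3, Cxcl1, Cxcl5, Il1b and Il1r2. In each of the 7 the wild-type arrays with TNBS all lay above those without. Of all genes, 10.2% were called higher in wild type, and 6.99% had groups that did not overlap with TNBS above. Il1b, Cxcl1 and Cxcl5 were lower in the knockout than in wild type with TNBS, 3 of the 10 genes, where 6.72% of all genes were called lower. The differences of the TNBS effect between genotypes were tested directly, and none of the 10 passed (0 by limma, 1 at an unadjusted p under 0.05), where 2.00% of all genes were called.

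**Figure D1:**
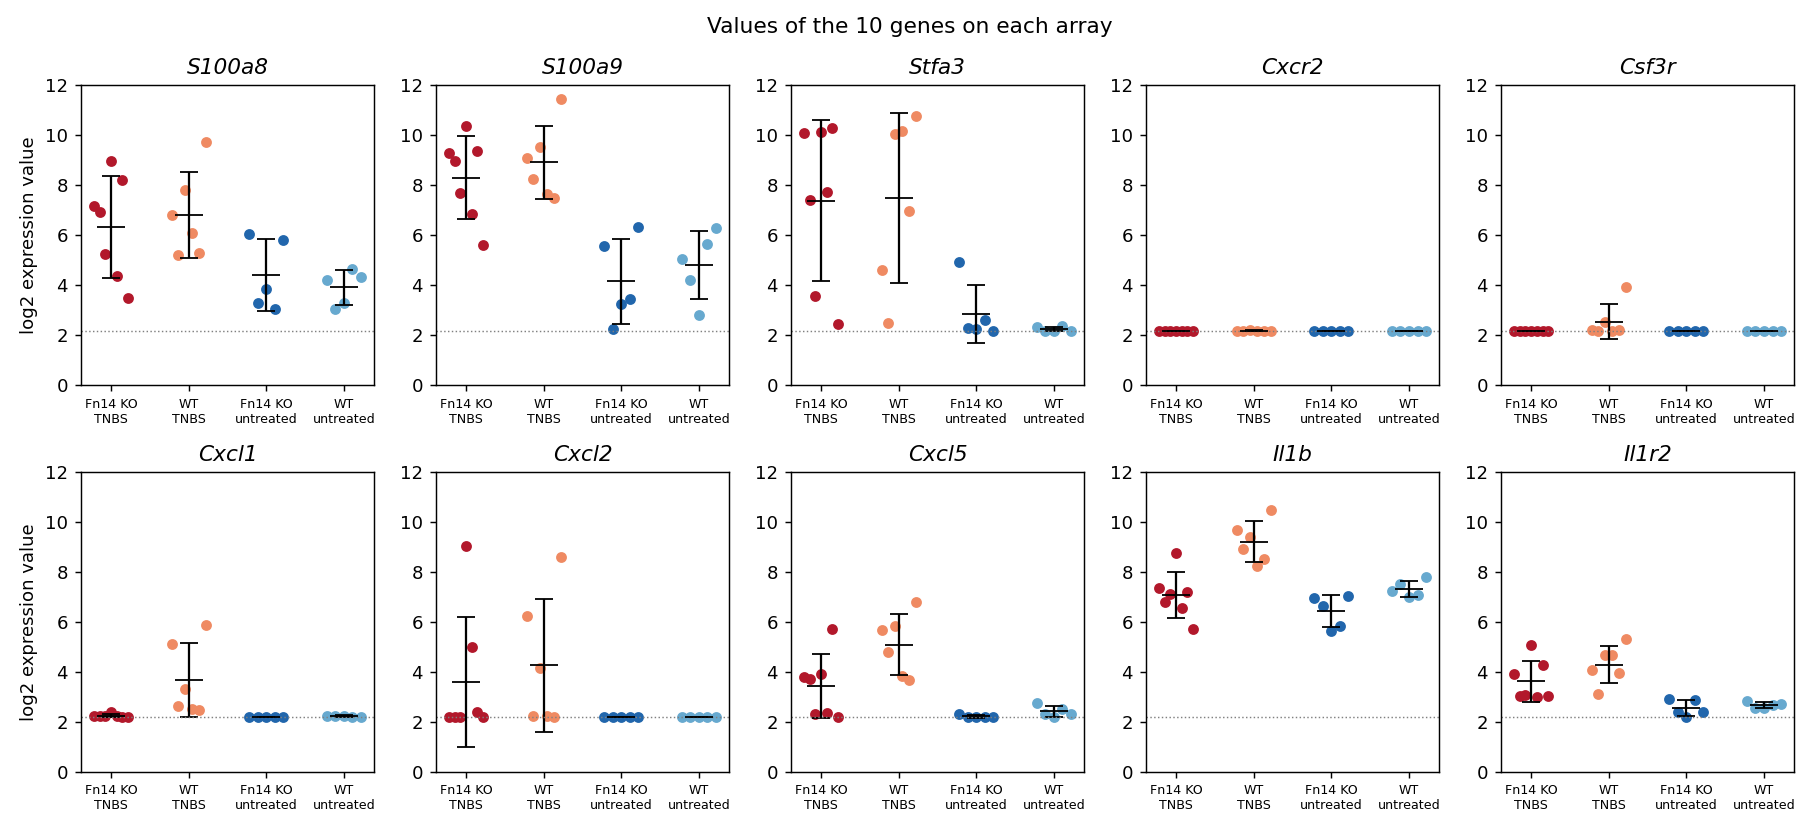
Log2 expression value (vertical axis) of the 10 genes on each of the 23 arrays, by group, with bars for the mean and SD and a dotted line at the floor of 2.17. The plot shows the wide spread of S100a8, S100a9 and Stfa3 within both TNBS groups, the floor values of Cxcr2, and Il1b, whose wild-type TNBS arrays lay between 8.23 and 10.49.

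S100a9, the larger calprotectin subunit, had log2 values of 5.60 to 10.36 (median 8.95) on the knockout arrays with TNBS and of 7.48 to 11.44 (median 8.66) on the wild-type arrays with TNBS. Without TNBS it stood at 5.55, 2.25, 3.24, 3.44 and 6.31 in the knockout and at 5.06, 4.20, 2.79, 5.65 and 6.26 in wild type. The lowest knockout array with TNBS lay below the highest one without, while the wild-type groups did not overlap. The log2 difference with TNBS was 4.14 ± 0.90 in the knockout (17.6-fold, adjusted p = 0.00769, limma) and 4.11 ± 0.94 in wild type (17.2-fold, adjusted p = 0.00466, limma), where ± is the standard error here and in all differences below. Its TNBS effect was larger by 0.03 in the knockout than in wild type, with a 95% interval from -2.69 to 2.75, which is wide.

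S100a8, the other calprotectin subunit, ran from 3.46 to 8.96 (median 6.93) in the knockout with TNBS and from 5.20 to 9.71 (median 6.45) in wild type with TNBS. Untreated arrays gave 6.03, 3.28, 3.85, 3.02 and 5.80 in the knockout and 4.21, 3.02, 3.28, 4.66 and 4.34 in wild type. Untreated knockout arrays 1 and 5 thus lay above the lowest 3 knockout arrays with TNBS, and only the wild-type groups were separate. The S100a8 difference with TNBS was 1.93 ± 0.93 in the knockout (adjusted p = 0.233, limma). In wild type S100a8 rose by 2.91 ± 0.97 (7.54-fold, adjusted p = 0.0448, limma), a call that was lost when any of 12 single arrays was left out. Knockout and wild type with TNBS differed by -0.49 ± 0.89, with a 95% interval of -2.35 to 1.37.

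Stfa3 encodes a stefin, an inhibitor of cysteine proteases. The probe set may also detect transcripts of its close relatives, since Stfa1 and Stfa2 had no probe set of their own here. It showed the widest spread of the 10 genes: 2.45 to 10.27 (median 7.71) in the knockout with TNBS and 2.50 to 10.75 (median 8.49) in wild type with TNBS. Without TNBS its values were 4.90, 2.26, 2.23, 2.60 and 2.17 in the knockout, against 2.30, 2.17, 2.17, 2.38 and 2.17 in wild type. Most TNBS arrays were far above the floor, and 1 array in each TNBS group was close to it. The log2 difference with TNBS was 4.54 ± 1.48 in the knockout, which missed the threshold (adjusted p = 0.0636, limma), and 5.26 ± 1.54 in wild type (38.2-fold, adjusted p = 0.0231, limma). The wild-type call was lost without array 3, 4 or 6 of the wild-type TNBS group, at differences of 4.61 to 4.75. The genotypes with TNBS differed by -0.13 ± 1.41 (95% interval -3.08 to 2.83).

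Both receptor genes gave almost no signal. Cxcr2 stood at 2.17 on 22 of the 23 arrays and at 2.19 on wild-type TNBS array 3. Csf3r was at 2.17 or 2.18 on every array of the knockout and of untreated wild type. Its wild-type TNBS arrays read 2.21, 2.17, 2.51, 2.17, 2.20 and 3.93, so that 1 array was clearly above the floor. No difference of either gene passed in any of the 5 comparisons (limma, adjusted p at or above 0.294), which at these levels says nothing about the receptors themselves.

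Cxcl1, a chemokine made by epithelium, fibroblasts and macrophages, was close to the floor outside the wild-type TNBS group. Its main probe set read 2.18 to 2.39 (median 2.24) in the knockout with TNBS, and 2.48 to 5.88 (median 2.97) in wild type with TNBS. All untreated arrays lay between 2.17 and 2.24. The wild-type TNBS arrays were therefore all above every other array, 2 of them (5.11 and 5.88) by a wide margin and 3 of them by little. With TNBS Cxcl1 differed by 0.07 ± 0.44 in the knockout (adjusted p = 1, limma) and rose by 1.43 ± 0.45 in wild type (2.70-fold, adjusted p = 0.0359, limma). Knockout values with TNBS were lower than wild-type values by -1.41 ± 0.42 (2.65-fold, adjusted p = 0.0358, limma). On this main probe set the groups did not overlap, as was so for 2.68% of all genes. The difference of the TNBS effects was -1.36 ± 0.63 (adjusted p = 0.298, limma). Neither call held without wild-type TNBS array 1 or without array 6, and the Cxcl1 difference between the genotypes with TNBS was then -1.12 and -0.96. Of 23 fits that left out 1 array, 7 lost the wild-type call and 8 the genotype call. The fit pools the spread over the 4 groups, but the SD was 1.48 in wild type with TNBS and at most 0.07 elsewhere. With the 2 compared groups alone neither call held (adjusted p = 0.198 and 0.147), nor with a floor at log2 5 (0.446 and 0.429, limma). The second and the third Cxcl1 probe set gave -1.35 ± 0.33 and -0.80 ± 0.42 for knockout against wild type with TNBS, with adjusted p-values of 0.0144 and 0.303 over all 45101 probe sets (limma), so 1 of the 3 probe sets missed the threshold. On both of these the genotypes with TNBS overlapped. The wild-type arrays began at 2.29 and 2.30, and the knockout arrays reached 2.41 and 3.14. For TNBS in wild type these probe sets gave 1.37 ± 0.36 and 0.94 ± 0.46 (adjusted p = 0.0169 and 0.226, limma).

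Cxcl2, which macrophages and neutrophils release early in inflammation, varied between the floor and high values among the TNBS arrays. With TNBS it read 2.17, 2.17, 2.17, 9.02, 4.98, 2.40 and 2.17 in the knockout and 6.23, 2.24, 4.16, 2.22, 2.17 and 8.59 in wild type. All 10 untreated arrays were at 2.17. High and floor values thus stood side by side within both TNBS groups. The log2 differences were 1.41 ± 1.16 with TNBS in the knockout (adjusted p = 0.562, limma) and 2.10 ± 1.20 with TNBS in wild type (adjusted p = 0.281, limma). The 95% interval of knockout minus wild type with TNBS ran from -2.99 to 1.62.

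Cxcl5, a chemokine made largely by epithelial cells, read 2.19 to 5.73 (median 3.73) in the knockout with TNBS and 3.66 to 6.78 (median 5.22) in wild type with TNBS. Untreated arrays gave 2.32, 2.19, 2.19, 2.19 and 2.21 in the knockout and 2.73, 2.32, 2.19, 2.52 and 2.32 in wild type. All 6 wild-type TNBS arrays exceeded all untreated arrays, while knockout TNBS arrays 3, 5 and 7 stayed within the range of all untreated arrays. With TNBS Cxcl5 differed by 1.22 ± 0.55 in the knockout (adjusted p = 0.195, limma) and rose by 2.67 ± 0.57 in wild type (6.37-fold, adjusted p = 0.00288, limma). With TNBS the knockout was lower by -1.65 ± 0.52 (3.15-fold, adjusted p = 0.0489, limma), with overlapping groups. That call sat at the threshold and was lost in 20 of the 23 fits that left out 1 array, with adjusted p-values up to 0.126. With the 2 compared groups alone its adjusted p was 0.172 (limma).

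Il1b encodes the cytokine IL-1 beta and had the smallest adjusted p of the 10 genes between the genotypes with TNBS. Its log2 values were 7.37, 6.81, 7.10, 8.74, 6.53, 7.19 and 5.72 in the knockout with TNBS and 9.65, 8.93, 9.40, 8.23, 8.52 and 10.49 in wild type with TNBS. The untreated arrays read 6.97, 6.63, 5.63, 5.84 and 7.03 in the knockout and 7.22, 7.49, 6.998, 7.05 and 7.79 in wild type. Of the 7 knockout arrays with TNBS, 6 lay below all wild-type arrays with TNBS, and array 4, at 8.74, lay within them. Il1b was lower in the knockout than in wild type with TNBS by -2.14 ± 0.41 (4.40-fold, adjusted p = 0.00238, limma). With TNBS it differed by 0.65 ± 0.43 in the knockout (adjusted p = 0.43, limma) and rose by 1.89 ± 0.45 in wild type (3.72-fold, adjusted p = 0.00594, limma). The difference of these TNBS effects was -1.25 ± 0.62 with an adjusted p of 0.342, so the genotypes were not shown to respond differently.

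The order of the Il1b group means was wild type with TNBS (9.20 ± 0.82, SD), wild type without TNBS (7.31 ± 0.33), knockout with TNBS (7.07 ± 0.92) and knockout without TNBS (6.42 ± 0.65). Only the first stood apart from its neighbour by more than the spread. Without TNBS, Il1b differed between knockout and wild type by -0.89 ± 0.47 (adjusted p = 0.325, limma), where 4.83% of all genes were called in either direction. No member, Il1b included, was called between the untreated groups (0 of 10 by limma, and 0 at an unadjusted p under 0.05). The Il1b difference between the genotypes with TNBS passed in all 23 fits that left out 1 array.

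Il1r2 encodes the decoy receptor that neutrophils, macrophages and B cells carry or shed. It ran from 2.97 to 5.06 (median 3.09) in the knockout with TNBS and from 3.12 to 5.30 (median 4.36) in wild type with TNBS. Without TNBS it read 2.91, 2.39, 2.17, 2.88 and 2.39 in the knockout and 2.84, 2.54, 2.55, 2.65 and 2.70 in wild type. In both genotypes every array with TNBS lay above every array without. The Il1r2 difference of 1.07 ± 0.36 in the knockout missed the threshold (adjusted p = 0.0687, limma), although its groups did not overlap. In the knockout 1.97% of all genes had groups without overlap and TNBS above. In wild type Il1r2 rose by 1.63 ± 0.37 (3.10-fold, adjusted p = 0.00458, limma). Knockout minus wild type with TNBS was -0.67 ± 0.34 (adjusted p = 0.253, limma).

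**Figure D2:**
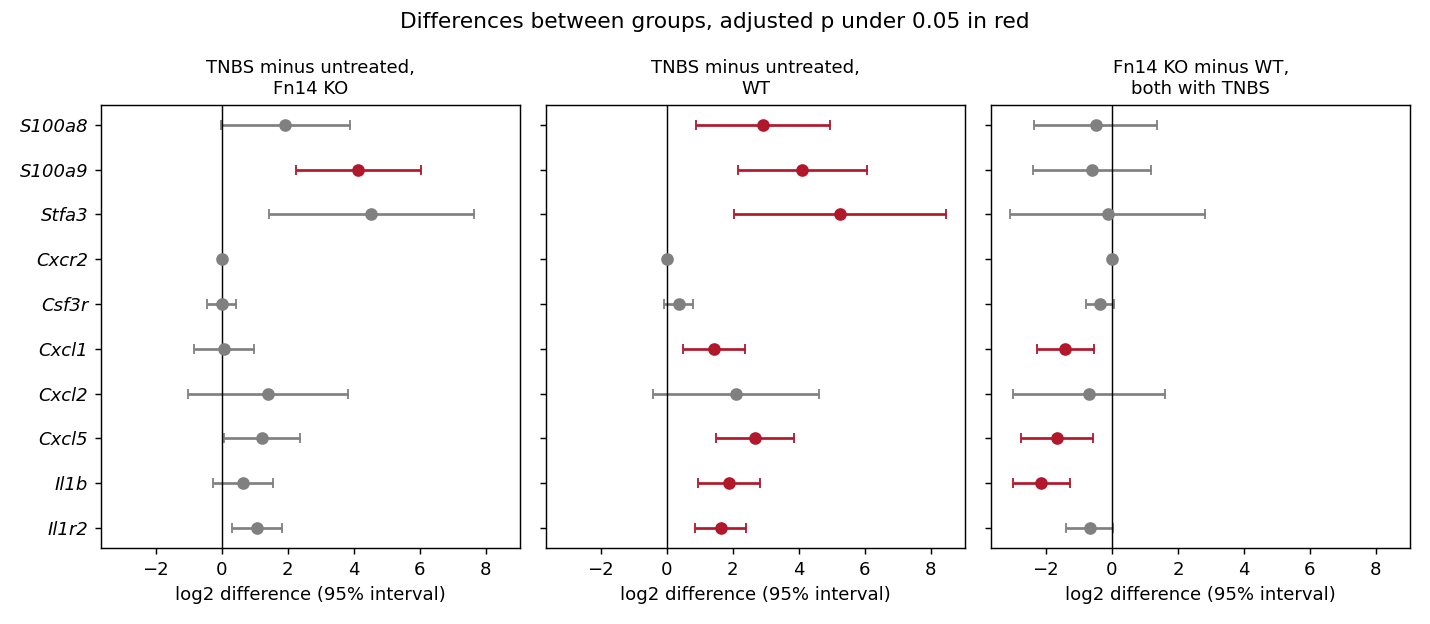
Log2 differences (horizontal axis) with 95% intervals for the 10 genes in 3 comparisons, from left to right TNBS minus untreated in the knockout, TNBS minus untreated in wild type, and knockout minus wild type with TNBS. Red points passed an adjusted p of 0.05: 1, 7 and 3 genes, and the intervals of S100a8, S100a9 and Stfa3 between genotypes span 0 widely.

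The median log2 difference of the 10 genes was 1.15 with TNBS in the knockout, 1.99 with TNBS in wild type, -0.64 between the genotypes with TNBS and -0.02 between the untreated genotypes. The median over all 18194 genes was 0 in each of these comparisons. Of the called genes in wild type, 62.0% were higher with TNBS, and 43.4% after the arrays were centred on their medians. All 10 member differences between the genotypes with TNBS were below 0, and 7 of the 10 were not called. Those of Cxcr2 (-0.003) and Csf3r (-0.36) came from values mostly at or near the floor. The shared sign was not tested, since the members share arrays and were chosen with earlier results known. The wild-type TNBS arrays enter both the TNBS contrast in wild type and the contrast of the genotypes with TNBS, so the member values of those contrasts are not independent of each other.

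A few arrays were high or low within their group over most of the members. Over the 8 members other than Cxcr2 and Csf3r, wild-type TNBS array 6 was the highest of its group in 8 of 8. Knockout TNBS array 4 was among the top 2 of its group in 8 of 8 and the highest in 6. Knockout TNBS array 7 had the lowest mean rank of its group, 6.63 of 7. With wild-type TNBS array 6 and knockout TNBS array 4 both left out, 4 members were called higher with TNBS in wild type and 1 lower in the knockout with TNBS. Calls among all genes, in either direction, fell there as well, from 2998 to 2491 and from 1902 to 1389.

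Deviations from the group means were compared over the 23 arrays, as a description with no test, since all genes share arrays and RNA. S100a8 and S100a9 deviated together (Pearson r = 0.92), and Il1b deviated with both (0.81 and 0.80). Cxcl1 and Cxcl2, the neighbouring chemokine genes, gave 0.71. Cxcl1 and Stfa3 gave 0.15. Of 1191 genes with an SD of at least 0.5, those whose deviations were most like S100a8 were S100a9, Sprr1b, Lce3c, Lce3a and Klk8 (0.92 to 0.85), of which Sprr1b, Lce3c and Lce3a encode proteins of the cornified envelope of squamous cells. Most like Il1b were Fpr2, Clec4d, S100a8, S100a9 and Timp1 (0.87 to 0.78). Most like Cxcl5 were Defb3, S100a8, Prss12, Clec4d and Mmp12 (0.82 to 0.73). Over the values themselves the nearest genes were S100a9, Sprr1b, Klk8, Lgals7 and Fabp5 for S100a8 (0.91 to 0.86), and Cd300a, Fcer1g, Slc11a1, Aif1 and Cd68 for Il1b (0.90 to 0.89). For Cxcl5 they were 1810008I18Rik, Mmp12, Prss12, Slc14a1 and Clec4d (0.89 to 0.87).

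**Figure D3:**
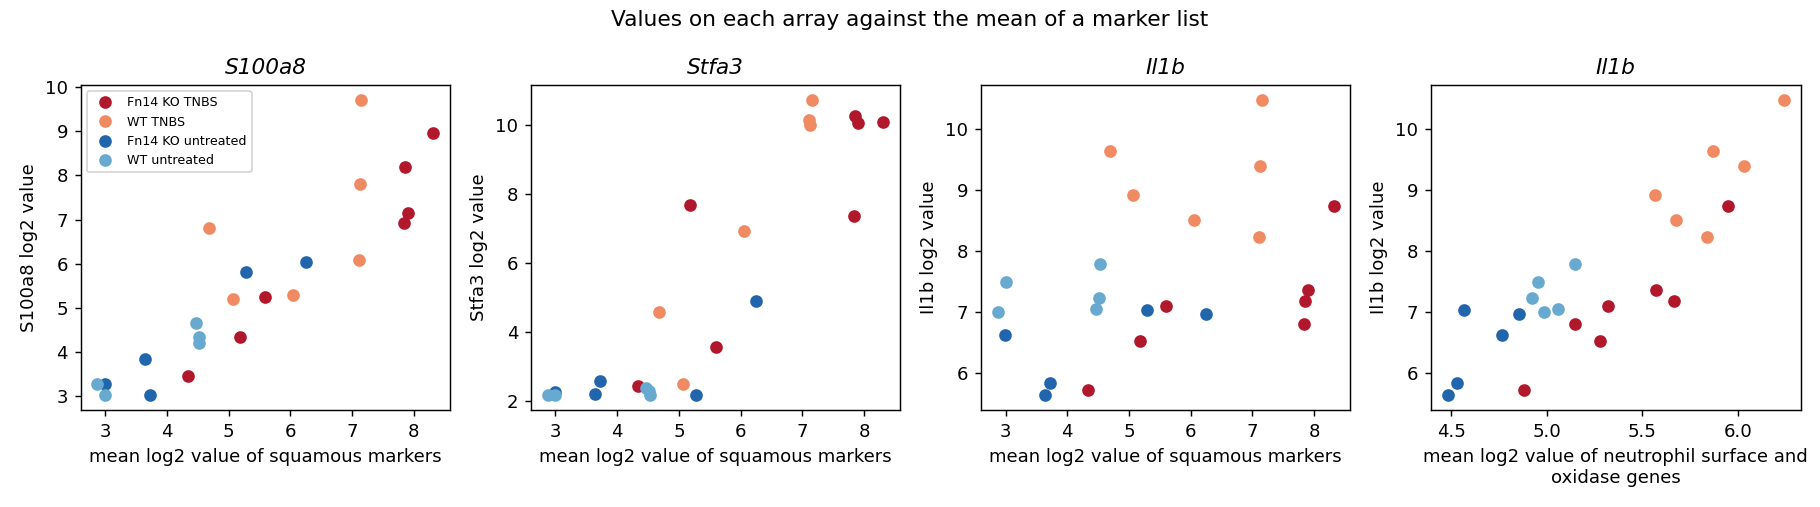
Log2 values of S100a8, Stfa3 and Il1b on each of the 23 arrays (vertical axes) against the mean log2 value of the squamous markers, and Il1b against the mean of the neutrophil surface and oxidase genes (horizontal axes), coloured by group. S100a8 and Stfa3 are high where the squamous mean is high in both genotypes, while Il1b at a given squamous mean is mostly higher on the wild-type TNBS arrays.

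Markers of squamous epithelium moved with the calprotectin genes. Of 15 squamous markers measured, 2 rose with TNBS in the knockout and 5 in wild type, where 4.08% and 10.2% of all genes rose. Krt14, a keratin of basal cells, was called in both (3.21 ± 0.80 with an adjusted p of 0.0163 in the knockout, and 4.11 ± 0.82 with an adjusted p of 0.00178 in wild type, limma). None of the 15 markers was called between the genotypes with TNBS, and none stood at the floor on all arrays. The mean of the list ran from 4.34 to 8.31 in the knockout with TNBS, from 4.69 to 7.15 in wild type with TNBS, from 3.00 to 6.25 in the knockout without TNBS and from 2.87 to 4.52 in wild type without TNBS. The summed level of the list ran, in the same groups, from 9.08 to 13.42, from 9.27 to 12.35, from 7.82 to 11.21 and from 7.57 to 9.09 on the log2 scale. Deviations of this mean went with those of S100a8 (r = 0.84), S100a9 (0.80) and Stfa3 (0.78) and correlated at 0.52 with those of Il1b and at 0.01 with those of Cxcl1. With the mean as a covariate, 0 members were called with TNBS in either genotype, and the differences of the 7 genes in wild type ran from 0.48 for S100a8 (adjusted p = 0.811) to 1.88 for S100a9 (adjusted p = 0.12), with Cxcl5 at 1.84, Cxcl1 at 1.42 and Il1b at 1.20 (limma). Calls among all genes fell as well, from 1556 to 594 in the knockout and from 2998 to 1338 in wild type. The squamous mean did not overlap between the wild-type groups with and without TNBS, so that there it and TNBS cannot be told apart. Between the genotypes with TNBS the same fit called 4 members, Il1b, Cxcl1, Cxcl5 and Il1r2, all lower in the knockout.

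Markers of monocytes and macrophages, which also make IL-1 beta, were examined beside Il1b. Of 11 measured, 8 rose with TNBS in the knockout and 9 in wild type, where 4.08% and 10.2% of all genes rose. With TNBS 9 of the 11 were lower in the knockout than in wild type, where 6.72% of all genes were. Mertk, a receptor for dying cells, went the other way (-0.50 with TNBS in wild type, and 0.63 between the genotypes with TNBS). The monocyte receptor Ccr2 rose by 1.73 ± 0.23 in the knockout and 2.10 ± 0.23 in wild type and was lower in the knockout with TNBS by -1.02 ± 0.22 (adjusted p = 0.00487, limma). The mean of the list ran from 7.78 to 8.82 in the knockout with TNBS, from 8.64 to 9.45 in wild type with TNBS, from 7.14 to 7.87 in the knockout without TNBS and from 7.83 to 8.15 in wild type without TNBS. The summed level ran, in that order, from 12.24 to 13.20, from 13.02 to 13.84, from 11.64 to 12.32 and from 12.24 to 12.62, and no marker was at the floor on all arrays. With this mean as a covariate, a fit chosen after seeing the data, no member was called in any of these comparisons, and Il1b between the genotypes with TNBS was -1.10 (adjusted p = 0.397, limma). Few of all 18194 genes were called in that fit either. Their calls fell from 1556 to 52 in the knockout, from 2998 to 62 in wild type and from 1902 to 84 between the genotypes with TNBS. Deviations of Il1b from its group means correlated at 0.54 with those of this mean, at 0.52 with those of the squamous mean and at 0.83 with those of the mean of the neutrophil surface and oxidase genes. The macrophage mean did not overlap between the wild-type groups with and without TNBS, so that there it and TNBS cannot be told apart. The Gapdh 3' minus 5' signal, a measure of RNA quality, was 0.906 to 0.988 in the knockout with TNBS and 0.965 to 1.17 in wild type with TNBS. With it as a covariate, also added after seeing the data, Il1b was the 1 member still called between the genotypes with TNBS. Of all genes 738 were called there, against 1902 without the covariate. Cxcl5 gave -2.34 there (adjusted p = 0.0724) and Cxcl1 -1.29 (adjusted p = 0.269, limma), and S100a9 in the knockout gave 3.00 (adjusted p = 0.0712).

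Most of the other genes of neutrophil granules gave little signal. Of 12 measured, 7 were never above a log2 value of 3, and Elane, Ctsg, Mmp8 and Ngp stood at the floor on all arrays. With TNBS 2 of the 12 rose in the knockout, where 4.08% of all genes did, and 1 in wild type, where 10.2% did. Mmp9, a gelatinase that neutrophils store and macrophages also make, rose by 1.72 ± 0.39 with TNBS in the knockout (adjusted p = 0.00995, limma) and by 4.15 ± 0.41 in wild type (adjusted p = 1.03e-06, limma). It averaged 5.71 ± 0.76 in the knockout with TNBS and 7.86 ± 0.69 in wild type with TNBS (SD), and its TNBS effect was smaller in the knockout by -2.43 ± 0.56 (adjusted p = 0.0291, limma). Ltf, the gene of lactoferrin, an iron-binding protein of granules and of glandular secretions, rose in the knockout by 2.58 ± 0.78 (adjusted p = 0.0458, limma) and gave 1.56 ± 0.81 in wild type (adjusted p = 0.223). The median difference of the list, in which 7 of the 12 genes never exceeded 3, was 0.01 with TNBS in either genotype.

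Genes of the neutrophil surface and of the phagocyte oxidase, most of which macrophages also express, were measured for 24 members. Of these 9 rose with TNBS in the knockout and 10 in wild type, where 4.08% and 10.2% of all genes rose. With TNBS 9 of the 24 were lower in the knockout than in wild type, where 6.72% of all genes were. The list medians were 0.82, 0.65 and -0.38. Without TNBS 4 of the 24, Fcgr4, Fpr2, Cybb and Slfn4, were already lower in the knockout than in wild type. Of all genes, 4.83% were called there in either direction, and 60.4% of those calls were higher in the knockout. A difference below 0 was found for 18 of the 24, and this sign was not tested. For Fcgr4, a receptor for antibodies, knockout minus wild type was -1.32 ± 0.22 with TNBS and -1.37 ± 0.25 without (adjusted p = 0.000695 and 0.00332, limma). Pirb, an inhibitory receptor of myeloid cells, rose by 1.17 ± 0.27 in the knockout and by 2.55 ± 0.28 in wild type and was lower in the knockout with TNBS by -1.49 ± 0.26 (adjusted p = 0.000995, limma). Ncf1, a subunit of the oxidase, rose by 1.09 ± 0.23 in the knockout and 1.84 ± 0.24 in wild type. Hdc, the enzyme that makes histamine in mast cells and myeloid cells, gave 0.65 ± 0.27 in the knockout (adjusted p = 0.153) and rose in wild type by 1.86 ± 0.28 (limma). Slfn4, a gene of the Schlafen family, rose with TNBS in the knockout by 1.65 ± 0.23 and gave -0.04 ± 0.24 in wild type, and the difference of its TNBS effects was 1.69 ± 0.33 (adjusted p = 0.0137, limma). It averaged 10.87 in the knockout and 12.70 in wild type without TNBS. Itgam never exceeded 2.20, and the neutrophil marker Ly6g had no probe set of its own here.

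Among 15 other genes of neutrophil recruitment, 8 were never above a log2 value of 3, and Csf3, the gene of G-CSF, stood at the floor on all arrays. With TNBS 1 of them rose in the knockout and 2 in wild type, and 2 were lower in the knockout with TNBS, where 4.08%, 10.2% and 6.72% of all genes were called. Selp encodes P-selectin, on which leukocytes roll along venules. It rose by 1.43 ± 0.23 in the knockout and by 2.20 ± 0.24 in wild type and was lower in the knockout with TNBS by -0.998 ± 0.220 (adjusted p = 0.00614, limma). Pf4, a chemokine of platelets and some macrophages whose gene lies near Cxcl5, rose in wild type by 1.07 ± 0.21 (adjusted p = 0.00166, limma), and with TNBS the knockout was lower by -0.71 ± 0.20 (adjusted p = 0.0241, limma).

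Of 20 other genes of the IL-1 system, 1 rose and 1 fell with TNBS in the knockout, and 4 rose in wild type. With TNBS 3 of the 20 were lower in the knockout than in wild type. Of all genes, 4.08% rose in the knockout, 10.2% rose in wild type and 6.72% were lower in the knockout with TNBS. The count that rose in the knockout is near its share. Irak3, which restrains IL-1 and Toll-like receptor signalling, rose in wild type by 0.64 ± 0.13 (adjusted p = 0.00266, limma) and was lower in the knockout with TNBS by -0.73 ± 0.12 (adjusted p = 0.000884, limma). Il18bp, which neutralises IL-18, rose in the knockout by 1.28 ± 0.25 (adjusted p = 0.00365, limma) and was lower in the knockout than in wild type without TNBS by -1.33 ± 0.27 (adjusted p = 0.00772, limma). Il33, an alarmin of epithelium and stroma, rose in wild type by 0.97 ± 0.21, and Gsdmd, whose product forms the pore through which IL-1 beta leaves the cell, by 0.30 ± 0.07. Il1a never exceeded 2.30. Il1rn, the receptor antagonist, gave 0.21 ± 0.18 with TNBS in the knockout and 0.48 ± 0.18 in wild type and was not called (adjusted p = 0.57 and 0.084, limma). Among 12 other stefin and S100 genes, 2 rose in the knockout and 3 in wild type, beside the same 4.08% and 10.2% of all genes. The called differences were 0.96 or less, the largest that of S100a14 in wild type.

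**Figure D4:**
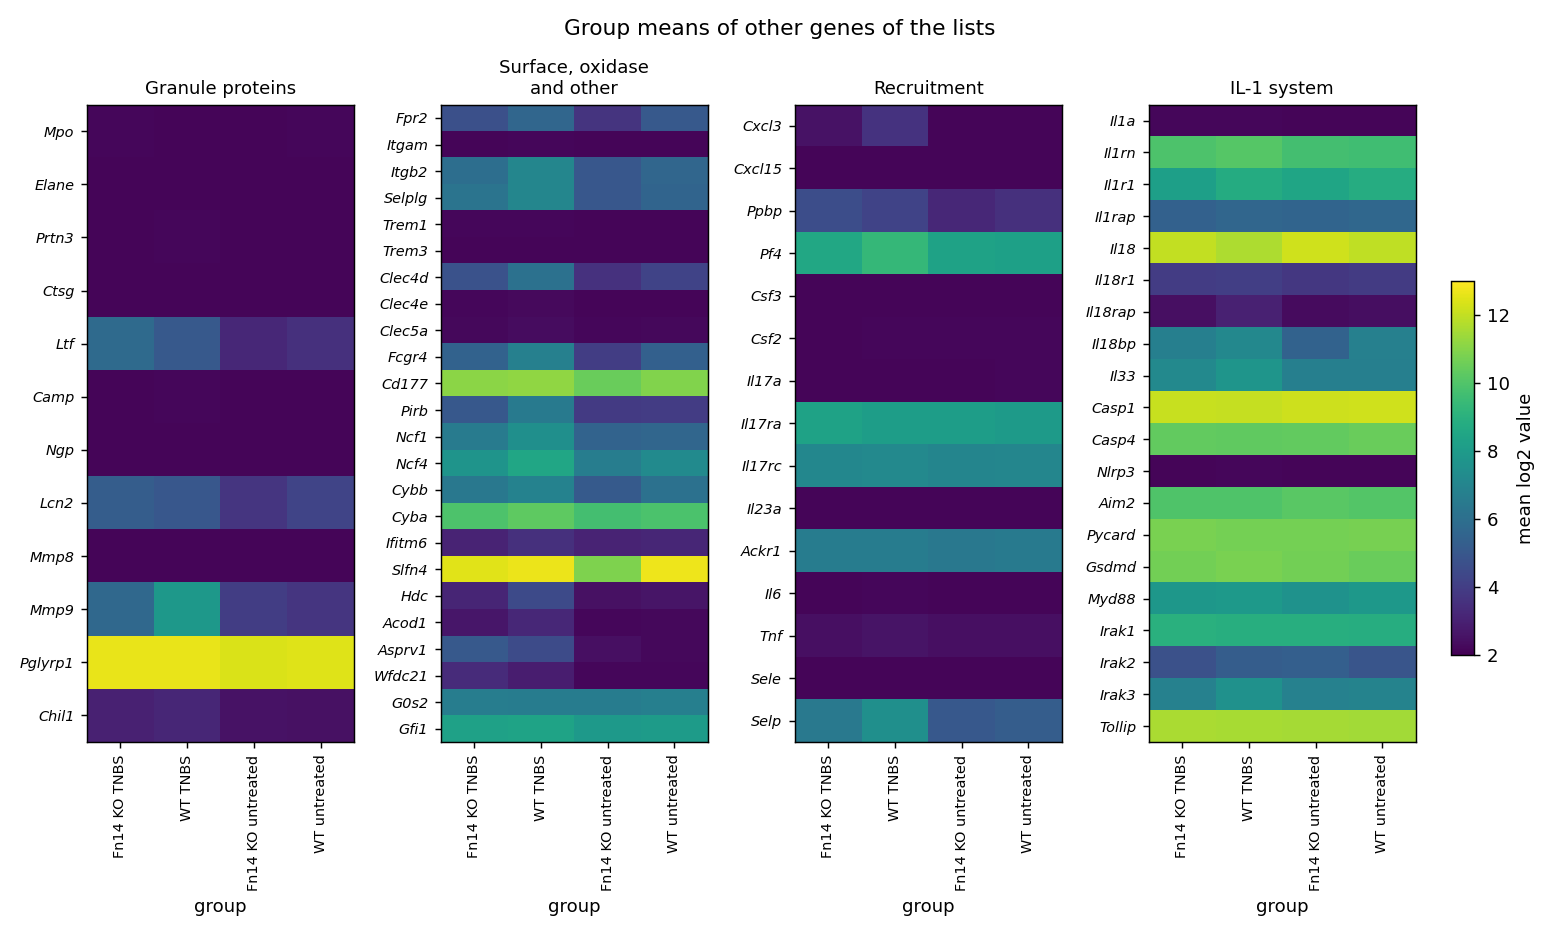
Mean log2 value (colour scale) in each of the 4 groups (columns) for the other measured genes of 4 lists: 12 granule genes, 24 surface and oxidase genes, 15 recruitment genes and 20 genes of the IL-1 system. Many granule and recruitment genes, such as Elane and Csf3, are dark in all groups because they stand at the floor.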

How the data were processed

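Biotin-labelled copies of colon RNA were hybridised to Affymetrix arrays, 1 for each of 23 samples, per the labels' protocols. The values that the authors deposited are on the log2 scale and cover 45101 probe sets. RMA and GCRMA are named in the submitters' processing notes, and the sources used here do not say which of them made the values. The log2 values ran from 2.17 to 15.98, and 30.52% lay within 0.005 of the lowest. The number of arrays limits the precision. All arrays differed from each other in their values. Sample titles gave the groups.

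Gene names of probe sets came from the platform annotation: 34958 named 1 gene, 932 several and 9211 were unnamed there. Only the first kind was used, with current symbols and gene order from assembly GRCm38.p6 for the 34754 that matched it. Of a gene's probe sets the one with the highest mean was kept, which left 18194 genes. Group means were estimated with limma (lmFit, eBayes, 19 residual and 0.475 prior degrees of freedom), and 5 contrasts were tested with Benjamini-Hochberg adjustment over all genes. The procedure was tested on simulated data. The 10 genes and the lists (5 of pathways, 6 of cell types) were chosen with earlier results of these data known. The other genes named are, of each list, up to 4 called genes with the smallest p and genes at the floor, and the genes most like S100a8, Il1b and Cxcl5 by Pearson r. Il1a, Il1rn, Itgam, Fcgr4, Fpr2, Cybb and Kit were named after their values were seen, outside this rule.

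Same-numbered samples of different groups correlated in their deviations at -0.46 to 0.43, and the numbers were not taken as pairs. Alternatives were array weights, the 2 compared groups alone, limma's options trend and robust, a filter at log2 4, the mean of a gene's probe sets, quantile normalization, median centring, a floor at log2 5, a replicate block, the squamous mean as a covariate, and each array left out. Chosen after seeing the data were 2 arrays left out together and covariates for the Gapdh 3' minus 5' signal and the macrophage mean. Analyses used R 4.3.3, limma 3.58.1, version 1.17.8 of the data.table package, Python 3.11.15 and matplotlib 3.10.9.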

Additional observations from a re-analysis of the deposited data

Results flagged for a closer look

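Of 40 sets of values, 1 for each gene and group, 8 (20%) held an array far from the others of its group. Chance flags about 1 set in 20, and sets that lie at the floor are flagged by very small differences. Cxcl2 reached 9.02 on knockout TNBS array 4, where the next array read 4.98. Csf3r reached 3.93 on wild-type TNBS array 6, where the next read 2.51. Stfa3 reached 4.90 on knockout array 1 without TNBS, where the next read 2.60. The other 5 arrays differed by little from the floor: Csf3r at 2.18 on knockout TNBS array 6, Cxcl1 at 2.39 on knockout TNBS array 4, Cxcl5 at 2.32 on knockout array 1 without TNBS, Cxcl1 at its lowest, 2.17, on knockout array 4 without TNBS, and Cxcr2 at 2.19 on wild-type TNBS array 3. Wild-type TNBS array 6 and knockout TNBS array 4 also had the highest mean over 8 of the 10 genes in their groups, 8.62 and 7.32.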

How the results depend on the processing

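Il1b was lower in the knockout with TNBS under every alternative tried but the macrophage covariate (-1.10, adjusted p = 0.397), and S100a9 rose with TNBS in both genotypes, and Cxcl5, Il1b and Il1r2 in wild type, in all 23 fits that left out 1 array. Of the calls lost there, that of S100a8 in wild type went without any wild-type array but TNBS arrays 2 and 5, and without knockout array 3, knockout TNBS array 1 or 2 (2.34 to 3.10). That of Cxcl1 in wild type went without any untreated wild-type array or TNBS array 1 or 6 (0.99 to 1.44), and its genotype call without wild-type TNBS array 1 or 6 or any knockout TNBS array but array 4. Cxcl5 kept its genotype call only without wild-type TNBS array 4 or 5 or knockout TNBS array 6.

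Members called with TNBS in the knockout were 1, but 3 with array weights, 2 of 4 with dim genes left out, 3 with a replicate block, 0 with each of the squamous, Gapdh and macrophage covariates, and 1 to 3 with 1 array left out. In wild type they were 7, but 4 of 4 with dim genes left out, 2 with a floor at log2 5, 0 with the squamous or macrophage covariate, 5 with a replicate block (S100a8 at an adjusted p of 0.0615 and Cxcl1 at 0.0901), and 4 to 7 with 1 array left out. For knockout against wild type with TNBS they were 3, but 1 with the 2 groups alone, with dim genes left out, with a floor or with the Gapdh covariate, 0 with the macrophage covariate, 2 with a replicate block (Cxcl1 at 0.0609), and 1 to 3 with 1 array left out. With the macrophage covariate the wild-type difference turned to -0.99 for S100a8 (adjusted p = 0.953) and to -0.99 for Stfa3 (adjusted p = 1); the cause was not tested.

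Of all genes, 1556 were called with TNBS in the knockout, but 856 with the 2 groups alone, 594, 813 and 52 with the squamous, Gapdh and macrophage covariates, and 1014 to 1835 with arrays left out. In wild type 2998 became 1338 and 62 with the squamous and macrophage covariates, and 2250 to 3158. For knockout against wild type with TNBS 1902 became 738 and 84 with the Gapdh and macrophage covariates, and 1389 to 2106. Without TNBS 879 became 288 with the 2 groups alone and 356 with the macrophage covariate, and 458 to 1021. For the difference of TNBS effects 363 became 213 to 443. Median centring moved the share of higher calls from 60.4% to 41.6% between the untreated genotypes (49.7% after quantile normalization) and from 31.1% to 41.3% for the difference of TNBS effects (41.6%). The replicate number was also used as a replicate block, although the labels do not say whether it pairs samples. Of 5, 5, 6 and 5 samples, 1, 1, 2 and 1 correlated best with their own number, which cannot settle it. The block gave 1230 genes between the genotypes with TNBS and 172 for the difference of TNBS effects. The 2 groups alone cannot give that difference.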

Other observations

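Mast cell genes, which the text has not described, rose with TNBS for 7 of the 8 measured in both genotypes, and the eighth, Kit, fell by 0.48 in the knockout (adjusted p = 0.012, limma). Mcpt1, a protease of mucosal mast cells, was higher with TNBS by 9.33 in the knockout and by 9.24 in wild type, and Cpa3, a carboxypeptidase of their granules, by 4.63 and 6.00. With TNBS 6 of the 8 were lower in the knockout than in wild type, where 6.72% of all genes were called lower. Of all genes, 4.08% rose with TNBS in the knockout and 10.2% in wild type. The eosinophil lectin Siglecf rose by 1.69 in wild type (adjusted p = 0.00012, limma) and was lower in the knockout with TNBS by -1.01 (adjusted p = 0.00818, limma), while Epx and Ccr3 stood at the floor on all arrays. All 5 general leukocyte genes rose with TNBS in both genotypes, among them Ptprc, the gene of CD45 (0.82 in the knockout and 1.12 in wild type), and 1 of the 5, Laptm5, was lower in the knockout with TNBS (-0.58, adjusted p = 0.0179, limma).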
